A study of Mus musculus with 24 samples.

Results

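Kidney tissue and 2 clonal B-lineage cell lines of the same mouse hybrid were compared in libraries made with the same kit from the same amount of RNA. The comparison uses 10 of the 24 samples of the series, namely 6 kidney libraries, 2 libraries of the clone Abl.1 and the first sequencing run of 2 libraries of the clone Abl.2, each made with the SMARTseqv4 kit from 10 ng of total RNA. It is restricted to the 32769 autosomal genes among 37315 genes in the tables, and allelic imbalance was compared for the 7247 of them with at least 200 pooled allelic counts in kidney and at least 200 in the clones. At that limit, Zfp292 was just inside, with 200 counts on the smaller side, and Gm10069 just outside, with 199.

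All samples carry the strain label 129S1/SvImJ x CAST/EiJ F1, are female and are labelled as control for drug treatment. The kidney is 1 left kidney of an adult mouse, freshly collected and extracted with Trizol, and its 6 libraries are aliquots of 1 RNA. Abl.1 and Abl.2 are immortalised B cells grown in culture medium, each a clone, called Abelson lymphoblastoid lines by the study, and their RNA was extracted with magnetic beads. The kidney libraries were sequenced as single-end reads and the Abl libraries as longer paired-end reads, so that tissue, extraction, read layout and sequencing run cannot be told apart here. The replicates are libraries of 1 RNA or 1 culture as far as the labels say, and every p-value measures the spread between libraries, not between mice or lines.

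The nephron is a filter followed by a tubule, in which the proximal segment takes back sugar, amino acids and small proteins and burns fatty acids, the thick limb and distal tubule move salt, and the collecting duct controls water. A pre-B cell assembles its antibody heavy chain, shows it on the surface with the surrogate light chains VpreB and lambda-5, and divides. In an F1 hybrid, SNPs between the strains show which copy of a gene an RNA came from, and an imbalance between the copies can follow the strain of the copy, the parent it came from, or a choice made by a cell and kept by its clone.

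A pair of quantities was taken from the deposited counts at SNPs between the strains. The first was the total allelic count of a gene per 1000000 autosomal allelic counts (CPM), which depends on how many SNPs a gene has and was compared between libraries only, never between genes. A gene with no usable SNP is listed at 0 whatever its expression. The second was AI, the count in the column named maternal divided by the sum of both columns, so that 0.5 is balance. Autosomal counts per library lay between 6345030 and 6382148 in kidney and between 18909180 and 21912191 in the clones, and 11601 to 11644 genes had 10 or more counts in a kidney library against 11162 to 11369 in an Abl library.

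The Abl.1 libraries stood apart. A chi-square of the counts per gene between replicate libraries was 2.14 to 2.24 for the 15 kidney pairs. It was 9.67 for Abl.2 and 97.2 for Abl.1. This measure grows with depth, so it compares the clones with each other and not with kidney. The Spearman correlation of total counts was 0.984 to 0.985 in kidney, 0.992 in Abl.2 and 0.974 in Abl.1. The fits take 1 spread per gene over all groups, so p-values of Abl.1 can understate its spread. Results below are therefore also given without Abl.1 where it matters. The tissue labels were checked with cell type markers. The 8 proximal tubule markers summed to 10493 to 10665 CPM in kidney and to 4.27 to 29.2 CPM in the clones, and the 5 collecting duct markers to 2207 to 2316 CPM in kidney and to 0 in each clone library. The 8 pre-B markers summed to 6495 to 7241 CPM in Abl.1, to 8320 to 8493 CPM in Abl.2 and to 15.9 to 20.2 CPM in kidney. Of other cell types, the 5 T and NK cell markers summed to 249 to 266 CPM in Abl.2 and to at most 4.71 CPM elsewhere, with Cd3e, Cd3g and Cd4 at 0 in Abl.2. The 6 myeloid markers summed to 102 to 112 CPM in kidney, to 186 to 213 CPM in Abl.1 and to 304 to 314 CPM in Abl.2, with Adgre1 at 0 in both clones. The 5 adrenal and fat markers summed to at most 6.27 CPM in any library, and Miox was at 0 in all libraries.

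The first question was which genes the tissues use. Among 13559 genes that passed the filter on low counts, 4497 (33.2%) were higher in kidney and 1990 (14.7%) higher in the clones, by edgeR's quasi-likelihood test of the mean of both clones against kidney with a Benjamini-Hochberg adjusted p under 0.05 and at least a 4-fold difference. Without the fold limit 11754 genes (86.7%) passed, so an adjusted p alone separates little between these libraries. Abl.1 alone gave 2230 genes higher (16.4%) and 4266 lower (31.5%) than kidney, Abl.2 alone 2196 (16.2%) and 4577 (33.8%), and Abl.2 was higher than Abl.1 in 962 genes (7.09%) and lower in 1588 (11.7%). Of the tested genes, 1562 (11.5%) were called higher than kidney in each clone and 3616 (26.7%) lower in each, while 200 (1.48%) were called in opposite directions. Without the Abl.1 libraries, Abl.2 against kidney gave 2161 genes higher and 4434 lower. Among the genes named by the rule below, each one called on the mean of the clones had an edgeR adjusted p of at most 4.82e-07, the value of Gm11223. In these bulk samples, fewer cells of a type and less RNA per cell cannot be told apart.

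Directions are relative to the scaling. The median over all tested genes was -0.43 on the log2 scale with TMM scaling and 0.27 with library size alone. The latter gave 3040 genes higher in the clones and 3956 higher in kidney, so that 43.5% of the calls were higher in the clones against 30.7% with TMM. Lists whose direction depends on this are named as such below. CPM values and their overlap are without TMM, while fold changes and calls use it, so the 2 can differ where changes are small. Eno1, for example, had 2329 to 2413 CPM in kidney and 3178 to 4420 CPM in the clones, with a fitted log2 fold change of -0.08.

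**Figure D1:**
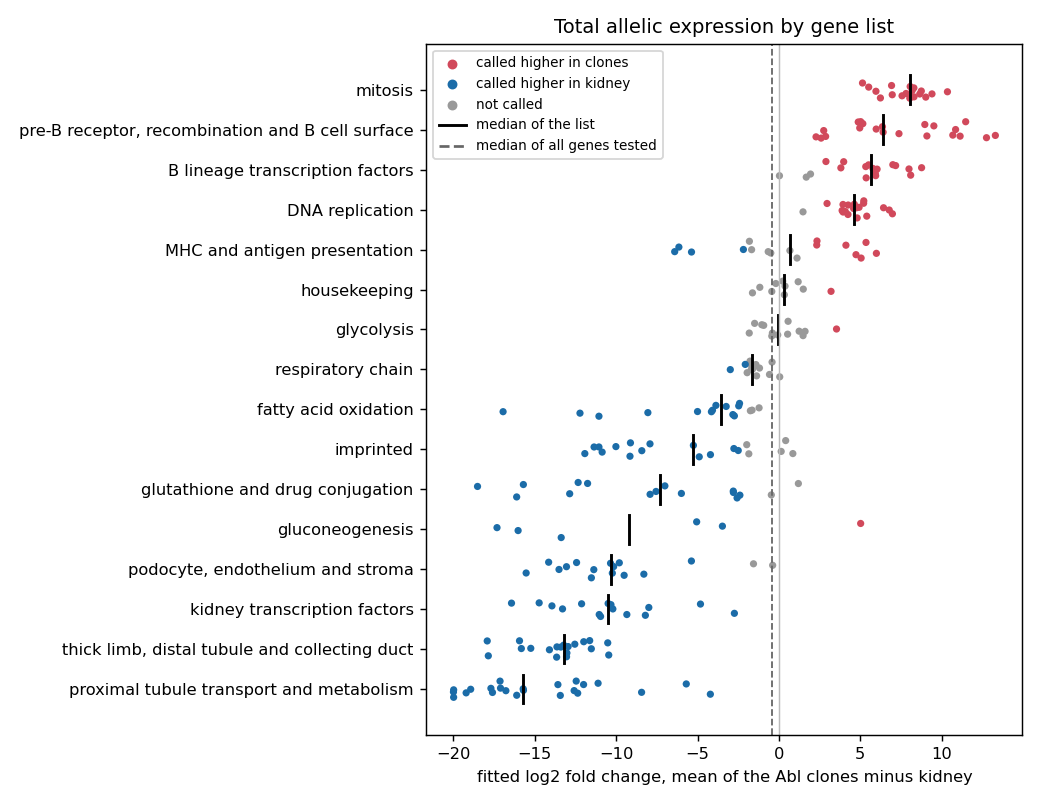
Fitted log2 fold change of the tested members of each of the 16 gene lists, mean of the Abl clones minus kidney (horizontal axis), 1 point per gene, coloured by call, with the median of each list as a black bar and the median of all 13559 tested genes (-0.43) as a dashed line. Nephron lists lie far to the left, with medians of -15.72 and -13.23, and the pre-B and mitosis lists to the right, at 6.40 and 8.05, while the medians of glycolysis (-0.08), respiratory chain (-1.63) and housekeeping genes (0.28) lie between them, with Hk2, Cox7a2, Atp5o and Eef1a1 as their called members.

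Nephron genes were higher in kidney. Of 24 proximal tubule genes, 23 were tested and 23 were higher in kidney, 14 of them at 0 in all 4 clone libraries. The fitted median was -15.72, or -14.50 with such genes set to the bound that a floor of 3 counts over the group allows. Slc27a2, a fatty acid transporter and acyl-CoA synthetase, had 7280 to 7486 CPM (median 7390), and Kap, the androgen-regulated kidney protein, 7360 to 7404 CPM (median 7371), both with 0 in the clones. Both genes therefore separated the tissues without overlap.

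Napsa, an aspartic protease of the proximal tubule, had counts in the clones as well. It had 7501 to 7564 CPM in kidney (median 7528), 810 and 919 CPM in Abl.1 and 514 and 499 CPM in Abl.2. The clones were well below kidney and did not overlap with it (log2 fold change -4.22, SE 0.04, edgeR adjusted p = 8.21e-17).

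The other kidney genes chosen for the largest differences were also at 0 in every clone library. They were Hao2, a peroxisomal hydroxyacid oxidase (median 4338 CPM in kidney), Aadat, an aminotransferase of lysine and kynurenine breakdown (3747), Keg1, named for its kidney expression (3568), Ldhb, the lactate dehydrogenase subunit of oxidative tissues (3340), Pdzk1ip1 (3192), Gsta2, a glutathione transferase (2652), and Wfdc15b (2561). Their lower bounds ran from 117779-fold for Wfdc15b to 199514-fold for Hao2.

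Further down the nephron, 19 of 20 thick limb, distal tubule and collecting duct genes were tested and 19 were higher in kidney (median -13.23, or -11.79 at the bounds). Slc12a1, the salt cotransporter of the thick limb, had 1692 to 1851 CPM in kidney (median 1756), and Aqp2, the water channel of the collecting duct, 1647 to 1706 CPM (median 1696). Both were at 0 in all clone libraries. Egf, made in the distal tubule, had 3268 to 3485 CPM in kidney (median 3374), 2.12 and 3.56 CPM in Abl.1 and 5.86 and 4.87 CPM in Abl.2, a log2 fold change of -10.46.

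Umod, which encodes the thick limb protein uromodulin, differed between the clones. It had 564 to 601 CPM in kidney (median 580), 0 in both Abl.1 libraries, and 8.29 and 9.18 CPM in both Abl.2 libraries. The Abl.2 values were low and without overlap with kidney, and the difference between clones passed edgeR's test with an adjusted p of 2.31e-10.

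Of 18 podocyte, endothelium and stroma genes, 16 were tested and 14 were higher in kidney on the mean of the clones, 13 of them in each clone (median -10.29, or -9.71 at the bounds). The exception was Pdgfrb, a receptor of pericytes and mesangium, with 23.7 to 33.2 CPM in kidney, 87.5 and 110 CPM in Abl.1 and 0 in both Abl.2 libraries, so that the clones lay on either side of kidney. Podxl, the podocyte surface sialomucin podocalyxin, had 178 to 191 CPM in kidney and at most 0.286 CPM in a clone library. Emcn, an endothelial sialomucin, had 323 to 352 CPM in kidney and 0 in the clones. Col4a3, a chain of the glomerular basement membrane, had 325 to 381 CPM in kidney against 0.317 and 0.593 CPM in Abl.1 and 0 and 2.66 CPM in Abl.2, and Ren1, renin, had 517 to 546 CPM against 0 and 0 in Abl.1 and 0 and 0.413 CPM in Abl.2. Pecam1 and Egfl7, which endothelium shares with other cells, were the tested members without a call, with log2 fold changes of -0.39 and -1.56.

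Kidney transcription factors followed the same side, with 15 of 17 tested and 15 higher in kidney (median -10.50, or -9.35 at the bounds). Hnf4a, a nuclear receptor of proximal tubule and liver, had 609 to 642 CPM in kidney (median 630) and 0 in the clones. Pax8, a factor of nephron development, had 60.5 to 79.0 CPM and Nr1h4, the bile acid receptor, 183 to 205 CPM, again with 0 in the clones. Tfcp2l1, a factor of the distal nephron, had 588 to 637 CPM in kidney, 0 in Abl.1 and 0.190 and 0.551 CPM in Abl.2.

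Metabolism split by pathway. Of 6 gluconeogenesis genes, 5 were higher in kidney and 1 was higher in the clones (median -9.22). G6pc, the glucose-6-phosphatase that releases glucose, had 1142 to 1185 CPM in kidney (median 1165) and 0 in all clone libraries. Fbp1, fructose-1,6-bisphosphatase, had 3550 to 3680 CPM against 0.411 to 0.810 CPM in the clones, and Slc37a4, the glucose-6-phosphate transporter, 1482 to 1548 CPM against 43.4 to 112 CPM.

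Pck2, the mitochondrial phosphoenolpyruvate carboxykinase, was the member on the other side. It had 10.4 to 14.4 CPM in kidney (median 12.2), 292 and 450 CPM in Abl.1 and 1143 and 1189 CPM in Abl.2. All clone libraries were above all kidney libraries (log2 fold change 5.02, SE 0.12, edgeR adjusted p = 1.44e-13).

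Fatty acid oxidation had 16 of 16 genes tested, with 13 higher in kidney and none in the clones (median -3.56). Ehhadh, the peroxisomal bifunctional enzyme, had 885 to 934 CPM in kidney and 0 in the clones. Acadm, the medium-chain acyl-CoA dehydrogenase, had 2298 to 2385 CPM in kidney (median 2325), 98.9 and 113 CPM in Abl.1 and 131 and 135 CPM in Abl.2. Acaa2, the mitochondrial thiolase, was lower in Abl.2 than in Abl.1, with 122 and 116 CPM against 388 and 521 CPM.

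The respiratory chain moved less. Of 16 tested genes of 18, 2 were called higher in kidney, Cox7a2 and Atp5o, and the median was -1.63. Without Abl.1, 5 were called higher in kidney (median -1.93), Ndufb8 among them. Ndufb8, a complex I subunit, had 2589 to 2747 CPM in kidney and 999 to 1998 CPM in the clones, a log2 fold change of -1.71 that misses the 4-fold limit. Uqcrc1, a complex III subunit, overlapped in CPM, with 1815 to 1866 in kidney, 2860 and 2656 in Abl.1 and 1861 and 1773 in Abl.2. Its fitted log2 fold change was 0.05 in Abl.1 and -0.90 in Abl.2. For Cox7a2, 1619 to 1661 CPM in kidney stood against 585 and 471 CPM in Abl.1 and 238 and 184 CPM in Abl.2 (log2 fold change -2.99), but with the NEBNext kidney libraries in place of the SMARTseq ones the fold change was -0.75 and no call was made.

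Glycolysis had 13 of 14 genes tested, with 1 higher in the clones, Hk2, and none higher in kidney. Its median was -0.08 with TMM and 0.63 with library size alone, where 3 genes were called higher in the clones, and 3 were called higher in kidney without Abl.1, Aldoa among them (log2 fold change -2.37), so no direction is given for this list. Pkm, pyruvate kinase, had 399 to 430 CPM in kidney (median 406), 3336 and 3579 CPM in Abl.1 and 1235 and 1162 CPM in Abl.2. The clones were above kidney and far from each other (log2 fold change against kidney 2.54 for Abl.1 and 0.67 for Abl.2). Eno1 had a log2 fold change of -0.08 (edgeR adjusted p = 0.240) and Ldha of 0.53, while Aldoa overlapped, with 1130 to 1165 CPM in kidney, 1145 and 1055 CPM in Abl.1 and 401 and 394 CPM in Abl.2.

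Detoxification genes lay mostly on the kidney side, with 14 of 16 tested glutathione and drug conjugation genes of 20 higher in kidney on the mean of the clones and 12 in each clone (median -7.28). Gstm1 had 624 to 654 CPM in kidney, 1.48 and 0.183 CPM in Abl.1 and 22.8 and 23.9 CPM in Abl.2. Gstt1 had 559 to 598 CPM in kidney, 16.5 and 7.85 CPM in Abl.1 and 1.24 and 2.80 CPM in Abl.2. The clones thus took opposite orders for these 2 transferases, with all clone libraries below kidney. Gstp1, the transferase of many proliferating cells, had 146 to 167 CPM in kidney against 841 and 712 CPM in Abl.1 and 438 and 426 CPM in Abl.2, a log2 fold change of 1.19 without a call. With the NEBNext kidney libraries it was 3.96 and was called (edgeR adjusted p = 2.41e-13).

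**Figure D2:**
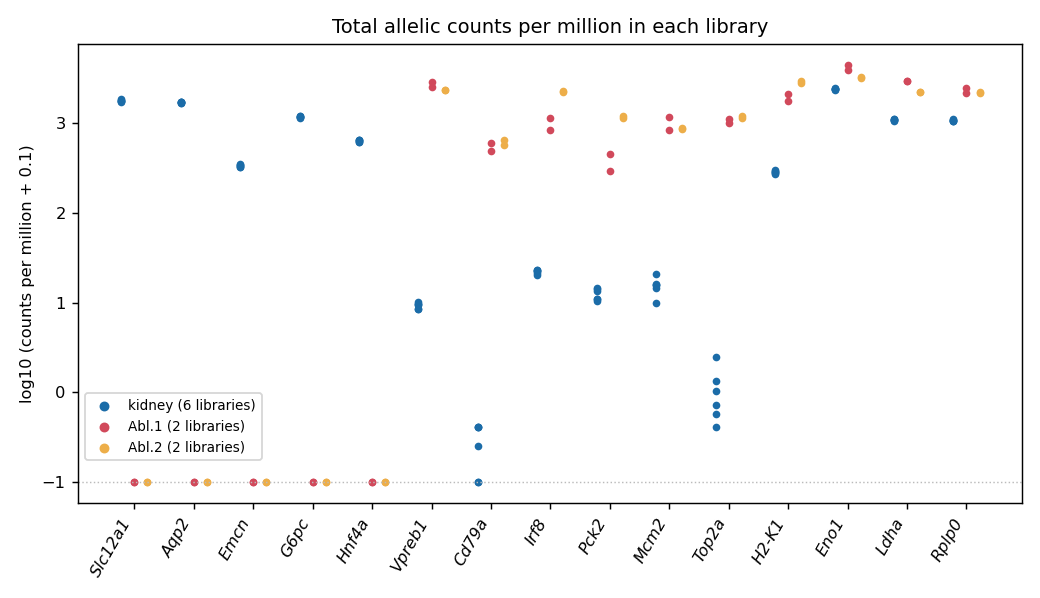
Total allelic CPM of 15 genes in each library on a log10 axis with 0.1 added (vertical axis), 1 point per library, kidney (6 libraries), Abl.1 (2) and Abl.2 (2) side by side for each gene. Slc12a1, Aqp2, Emcn, G6pc and Hnf4a are at 0 in every clone library (dotted line), Cd79a is at or under 0.314 CPM in kidney, and Eno1, Ldha and Rplp0 lie within a small range.

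On the side of the clones stood the pre-B cell. Of 22 genes of the pre-B receptor, recombination and B cell surface, 21 were in the table and tested, 21 were higher in the clones and 18 were called in each clone (median 6.40, or 6.36 at the bounds). Vpreb1, a surrogate light chain, had 8.30 to 9.93 CPM in kidney (median 9.49), 2876 and 2477 CPM in Abl.1 and 2309 and 2314 CPM in Abl.2, a log2 fold change of 7.37. Vpreb3 had 0.157 to 0.471 CPM in kidney against 2808 to 3508 CPM in the clones, and Vpreb2 0.157 to 0.946 CPM against 1652 to 1905 CPM. All clone libraries were far above all kidney libraries for the 3 genes.

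Cd79a, a signalling chain of the receptor, had at most 0.314 CPM in kidney against 484 to 638 CPM in the clones. Blnk, the adaptor that passes the receptor signal on, had 25.1 to 38.1 CPM in kidney (median 31.8), 1899 and 2162 CPM in Abl.1 and 1310 and 1453 CPM in Abl.2. Rag1 and Rag2, the recombinase, had no count in kidney and 2883 and 823 pooled counts in the clones.

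The remaining genes chosen for the largest increase were Myl10, a myosin light chain (0 in kidney against 867 to 1070 CPM, at least 7218-fold), Hist1h2ao, a histone H2A gene (0 against 355 to 410 CPM, at least 2859-fold), Sit1, a lymphocyte adaptor (at most 0.627 CPM against 401 to 547 CPM), Sapcd2 (2 kidney counts against 168 to 598 CPM) and Treml2 (3 kidney counts against 212 to 605 CPM). Hist1h2ao belongs to a family of near-identical genes and its counts are uncertain for that reason. Gm11223 split the clones, with 0 in kidney, 243 and 151 CPM in Abl.1 and 5.05 and 5.10 CPM in Abl.2.

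Of 18 B lineage transcription factors, 15 were higher in the clones, 13 in each clone, and none in kidney (median 5.64, or 5.43 at the bound). Irf8, a factor of B and myeloid cells, had 20.4 to 23.2 CPM in kidney, 824 and 1139 CPM in Abl.1 and 2252 and 2226 CPM in Abl.2. Tcf3, which encodes E2A, had 0.630 to 2.51 CPM in kidney, 31.3 and 89.8 CPM in Abl.1 and 363 and 326 CPM in Abl.2, and Pou2af1, a B cell coactivator, 0 to 0.628 CPM, 42.9 and 63.9 CPM, and 335 and 335 CPM. Abl.2 was the higher clone for all 3. Foxo1, a forkhead factor, had 105 to 110 CPM in kidney, 258 and 252 CPM in Abl.1 and 1202 and 1240 CPM in Abl.2, and was called in Abl.2 but not on the mean of the clones (1.68).

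Cell division genes formed the second group. All 18 mitosis genes were tested and higher in the clones (median 8.05), as were 18 of 19 tested DNA replication genes of 20 (median 4.63). Top2a, the topoisomerase that untangles chromosomes, had 0.315 to 2.35 CPM in kidney (median 0.784), 1101 and 988 CPM in Abl.1 and 1184 and 1145 CPM in Abl.2. Mcm2, a subunit of the replicative helicase, had 9.73 to 20.5 CPM in kidney (median 15.5), 827 and 1158 CPM in Abl.1 and 856 and 880 CPM in Abl.2. Both genes were higher in every clone library, with log2 fold changes of 9.40 and 5.21. Cdk1, Aurkb and Birc5 had at most 3.76, 2.67 and 2.52 CPM in kidney against 527 to 696, 540 to 878 and 538 to 1618 CPM in the clones.

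The replication genes also had counts in kidney. Pcna, the sliding clamp, had 26.5 to 30.9 CPM and Tyms, thymidylate synthase, 29.3 to 37.9 CPM in kidney, against 673 to 803 CPM and 703 to 1016 CPM in the clones. Tk1, thymidine kinase, was the tested member without a call on the mean of the clones. It had 129 to 151 CPM in kidney (median 135), 1003 and 868 CPM in Abl.1 and 431 and 404 CPM in Abl.2, so that Abl.1 passed the 4-fold limit (log2 fold change 2.24) and Abl.2 did not (0.72).

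The MHC and antigen presentation list split within itself. Of 17 tested genes, 7 were higher in the clones and 4 in kidney (median 0.67, with -0.19 for Abl.1 and 1.18 for Abl.2). The 7 were the class I chains H2-K1 and H2-D1, the peptide transporters Tap1 and Tap2, the immunoproteasome subunits Psmb8 and Psmb9, and Nlrc5, the class I transactivator. The 4 were the class II genes H2-Aa, H2-Ab1, H2-Eb1 and H2-DMb1, the last not called in Abl.1 alone (log2 fold change -1.14). H2-K1 had 273 to 296 CPM in kidney, 1770 and 2086 CPM in Abl.1 and 2905 and 2809 CPM in Abl.2, while H2-Aa, H2-Ab1 and H2-Eb1 had log2 fold changes of -5.37, -6.15 and -6.41. B2m, the light chain of class I, did not follow its partners, with 1268 to 1313 CPM in kidney against 532 to 670 CPM in the clones (log2 fold change -1.82, no call).

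Of 10 tested housekeeping genes, 1 was called higher in the clones (median 0.28, and 0.99 with library size alone), and Rplp0 had a log2 fold change of 0.37. Of 36 imprinted genes, 19 were tested and 14 were higher in kidney (median -5.26), 8 of them at 0 in all clone libraries. Cdkn1c, a cell cycle inhibitor, had 32.1 to 40.3 CPM in kidney and at most 0.476 CPM in a clone library. H13, Trappc9 and Inpp5f were detected in both, with log2 fold changes of 0.41, 0.85 and -1.85 and no call.

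Promoter letters were searched in RefSeq windows of 300 bases (250 before to 50 after a start site, GRCm38.p6) on both strands, each motif on its own, with overlaps between motifs allowed. The letters were GTTAATNAT for HNF1, CAAAGTCCA for HNF4, CCCNNGGGA for EBF, GAGGAAGT for PU.1, and TTTCCCGC or TTTGGCGC for E2F. The HNF1 letters were in 1.11% of windows of genes higher in kidney, 0.290% of windows of genes higher in the clones, 0.538% of windows of all tested genes and 0.803% of all 31396 windows. In the same order, the HNF4 letters were in 0.723%, 0.407%, 0.429% and 0.487%, the E2F letters in 1.3%, 5.29%, 2.67% and 1.56%, and the PU.1 letters in 2.46%, 5.05%, 3.13% and 3.25%. The EBF letters were in 8.97%, 7.72%, 8.09% and 6.68%, so the genes of the clones were below the tested genes. In the DNA replication list 7 of 16 matched genes held the E2F letters, namely Mcm3, Mcm5, Mcm6, Mcm7, Cdc6, Cdt1 and Rfc3, against 326 of 10030 matched genes tested and 0 of 15 of the mitosis list. Of 19 matched proximal tubule genes, 0 held the HNF1 or HNF4 letters and 4 the EBF letters, and of 14 matched pre-B genes 1 held the EBF and 1 the PU.1 letters. These are counts of letters, not of bound sites, and a window without them says nothing about the factor.

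Of the named kidney-side genes with a promoter window, only Aadat and G6pc held the HNF1 or HNF4 letters. On the side of the clones, Mcm3 and Mcm5 were the first 2 DNA replication genes, in list order, with E2F letters. These last 2 were chosen after their values were seen. The 4 windows shown were thus picked because they hold the letters, and they do not stand for their side. They are given 5′ to 3′ on the strand of the gene, with the matched letters in capitals. Aadat (chr8:60505874-60506173, plus strand) holds the HNF4 letters, G6pc (chr11:101367466-101367765, plus strand) the HNF1 letters, Mcm3 (chr1:20820263-20820562, minus strand) the E2F letters at 2 places and Mcm5 (chr8:75109259-75109558, plus strand) the E2F letters at 1 place.
Aadat: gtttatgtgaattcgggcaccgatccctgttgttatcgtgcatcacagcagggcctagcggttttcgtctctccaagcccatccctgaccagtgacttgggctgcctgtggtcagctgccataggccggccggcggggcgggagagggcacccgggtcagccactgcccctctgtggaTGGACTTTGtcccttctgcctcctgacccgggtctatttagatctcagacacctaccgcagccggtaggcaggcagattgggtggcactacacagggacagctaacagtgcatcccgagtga
G6pc: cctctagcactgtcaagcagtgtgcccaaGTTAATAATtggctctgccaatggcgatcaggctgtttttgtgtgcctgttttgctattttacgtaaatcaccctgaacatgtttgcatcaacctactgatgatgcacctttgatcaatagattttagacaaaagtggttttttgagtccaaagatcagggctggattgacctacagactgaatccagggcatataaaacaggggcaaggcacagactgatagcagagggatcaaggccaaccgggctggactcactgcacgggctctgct
Mcm3: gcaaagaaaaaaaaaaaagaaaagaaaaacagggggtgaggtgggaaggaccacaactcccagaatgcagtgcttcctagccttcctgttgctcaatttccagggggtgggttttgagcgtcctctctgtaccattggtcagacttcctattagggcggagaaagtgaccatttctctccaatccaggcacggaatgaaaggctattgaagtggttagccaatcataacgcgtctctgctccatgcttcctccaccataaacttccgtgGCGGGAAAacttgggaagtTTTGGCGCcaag
Mcm5: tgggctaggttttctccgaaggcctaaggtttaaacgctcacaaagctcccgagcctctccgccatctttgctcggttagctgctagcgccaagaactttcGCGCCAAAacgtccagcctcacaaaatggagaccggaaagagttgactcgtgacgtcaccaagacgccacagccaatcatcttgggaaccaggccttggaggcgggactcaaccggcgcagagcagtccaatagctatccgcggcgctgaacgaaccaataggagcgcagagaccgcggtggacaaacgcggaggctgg

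The second question was which allelic imbalances the tissues share. AI was tested against 0.5 with edgeR's quasi-likelihood test on the counts of both columns, and was called where the adjusted p was under 0.05 and the mean AI of the group at least 0.1 from 0.5. Of 7247 genes, 1319 (18.2%) were called in kidney, 739 on the maternal side and 580 on the paternal side. In Abl.1 2120 genes (29.3%) were called and in Abl.2 2261 (31.2%). The difference from kidney, of at least 0.1, was called for 2034 genes (28.1%) in Abl.1 and for 2276 (31.4%) in Abl.2.

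The sides are those of the columns. With 1 cross per tissue, strain and parent of origin cannot be told apart, and whether the column named maternal stands for the same parent in both tables was not tested. The study's methods take 129S1 as the maternal allele of this cross. If the columns of 1 table were turned, the shared genes and those on opposite sides would trade places. The correlation of AI between the tissues would then change sign. If the columns named strains in both tables and the direction of the cross differed, only genes set by the parent would change column. The effects of strain would then stay where they are. Which of these holds, if either, was not tested. Imprinted genes, whose active copy is set by the parent, bear on this and are given below.

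Of the 1319 genes called in kidney, 352 were called on the same side in both clones, 341 on the same side in 1 clone only, 195 on the other side in a clone with no clone on the same side, and 431 in neither clone. The 352 are the shared class (4.86% of 7247), 200 on the maternal and 152 on the paternal side. A kidney only class of 192 genes (2.65%) had both clones within 0.1 of 0.5 and a called difference from each clone. A clones only class of 279 (3.85%) had both clones called on 1 side, kidney within 0.1 of 0.5 and both differences called. In 49 genes (0.676%) kidney was on one side and both clones on the other. The clones differed from each other in 2077 genes (28.7%).

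**Figure D3:**
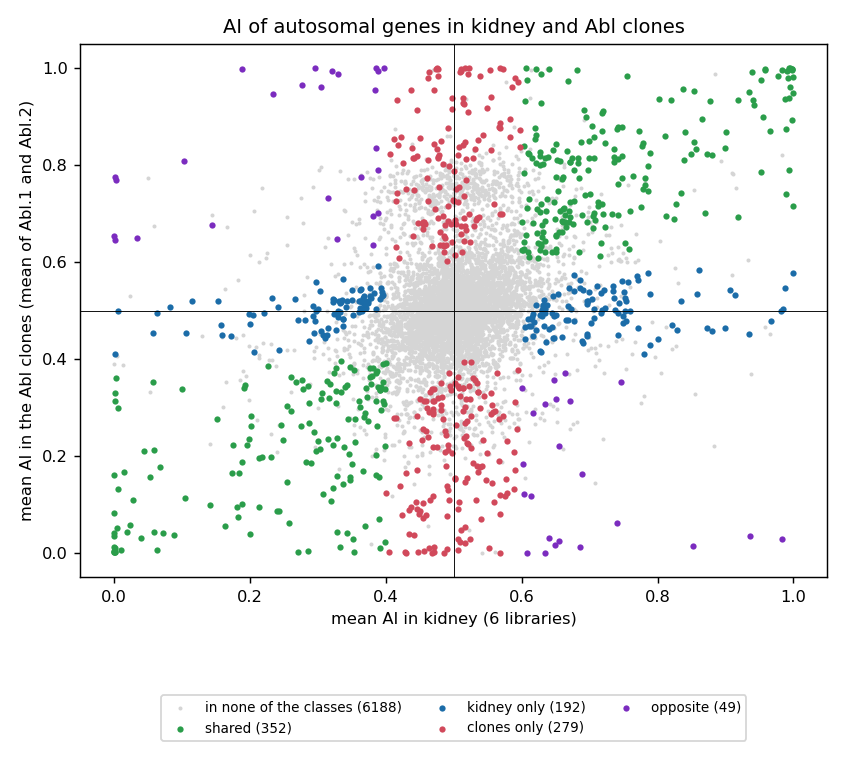
Mean AI in the 6 kidney libraries (horizontal axis) against the mean of the AI of Abl.1 and Abl.2 (vertical axis) for the 7060 genes with counts in both clones, 1 point per gene, coloured by class. The shared genes lie at the lower left and upper right, the kidney only and clones only genes along the middle lines, and the 49 opposite genes in the other 2 corners.

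Across 7060 genes with counts in both clones, AI in kidney and in the clones had a Pearson r of 0.323 and a Spearman rho of 0.279, as a description across genes that are not independent and share their SNPs. The 24 pairs of 1 kidney and 1 Abl library gave r between 0.195 and 0.247. The clones had an r of 0.305 with each other, and 0.483 without chromosomes 4, 5, 7, 10, 11 and 18, a set listed after AI by chromosome was known, where kidney and the clones had 0.378. The kidney value of the same genes in the NEBNext libraries, made from 100 ng of the same RNA, had an r of 0.811 with the 10 ng kidney value.

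The classes held different kinds of genes. Protein-coding genes made up 85.5% of the shared class and 97.9% of all genes compared, and 31.2% of shared and 30.7% of kidney only genes had at least 20% of their 30-mers in common with another gene, against 9.68% of clones only genes and 11.6% of all. Genes whose total expression was called different between the tissues made up 41.9% of the clones only class, 99 of them higher in kidney, against 51.0% of the opposite, 27.6% of the shared, 24.0% of the kidney only and 25.9% of all genes. The median distance of AI from 0.5 among shared genes was 0.202 in kidney, 0.256 in Abl.1 and 0.280 in Abl.2, and for 179 of the 352 the difference from kidney was called for neither clone.

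The NEBNext kidney libraries gave the kidney side a second measurement of the same RNA. Of 319 shared genes compared there, 204 were called on the same side, 0 on the other side and 115 not called, 112 of these within 0.1 of 0.5. Of 182 kidney only genes, 133 were called on the same side and 0 on the other, and of 273 clones only genes 249 were within 0.1 of 0.5. Of 45 opposite genes, 26 were called on the same side and 0 on the other. Same-side calls thus made up the larger part of each class called in kidney, and a share of each was not called with the other kit.

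The shared genes with the largest distances were near monoallelic in all libraries. On the maternal side, Nfatc3, a transcription factor of the NFAT family, had an AI of 0.991 to 1.00 in kidney (median 0.997), 0.998 and 0.998 in Abl.1 and 0.999 and 0.999 in Abl.2, and BC018473, an antisense gene, 0.994 to 1.00 in kidney and 0.998 to 0.999 in the clones. The other 4 named by the rule on this side were the pseudogenes Gm2710, Gm7666, Rpl31-ps8 and Gm16437, with mean kidney AI of 0.994 to 0.998. Their share of 30-mers in common with another gene was 64.6% to 100%, so that their counts are uncertain, against 4.49% for Nfatc3 and 1.2% for BC018473.

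On the paternal side, Lyz1, one of a pair of lysozyme genes, had an AI of 0 to 0.0455 in kidney (mean 0.00977, SD 0.0183, n = 6), 0.0124 and 0 in Abl.1 and 0.00883 and 0 in Abl.2. It shares 35.4% of its 30-mers with another gene. The other 5, Gm12355, Gm10874, Gm13680, Gm5805 and Gm6223, had kidney AI of at most 0.00556 and shared 60.9% to 83.3% of their 30-mers.

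Members of the gene lists that fell in the shared class, named after their values were seen, were less extreme in kidney. H2-D1 had an AI of 0.680 to 0.761 in kidney (median 0.717), 0.645 and 0.648 in Abl.1 and 0.626 and 0.640 in Abl.2. Gstp1 had 0.582 to 0.622 in kidney, 0.643 and 0.647 in Abl.1 and 0.782 and 0.774 in Abl.2, with Abl.2 above kidney by 0.171 (edgeR adjusted p = 1.12e-09). Ass1, the urea cycle enzyme argininosuccinate synthase, had 0.239 to 0.305 in kidney and 0 to 0.00543 in the clones, on 264 and 79 pooled counts. With the study's QCC-corrected test Ass1 was not called in Abl.2 (Bonferroni adjusted p = 0.325). All 3 were on the same side in every library, but the size differed between tissues for Gstp1 and Ass1. H2-D1, Gstp1 and Ass1 share 28.3%, 38.8% and 43.3% of their 30-mers with other genes, and reads from copies were not tested.

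**Figure D4:**
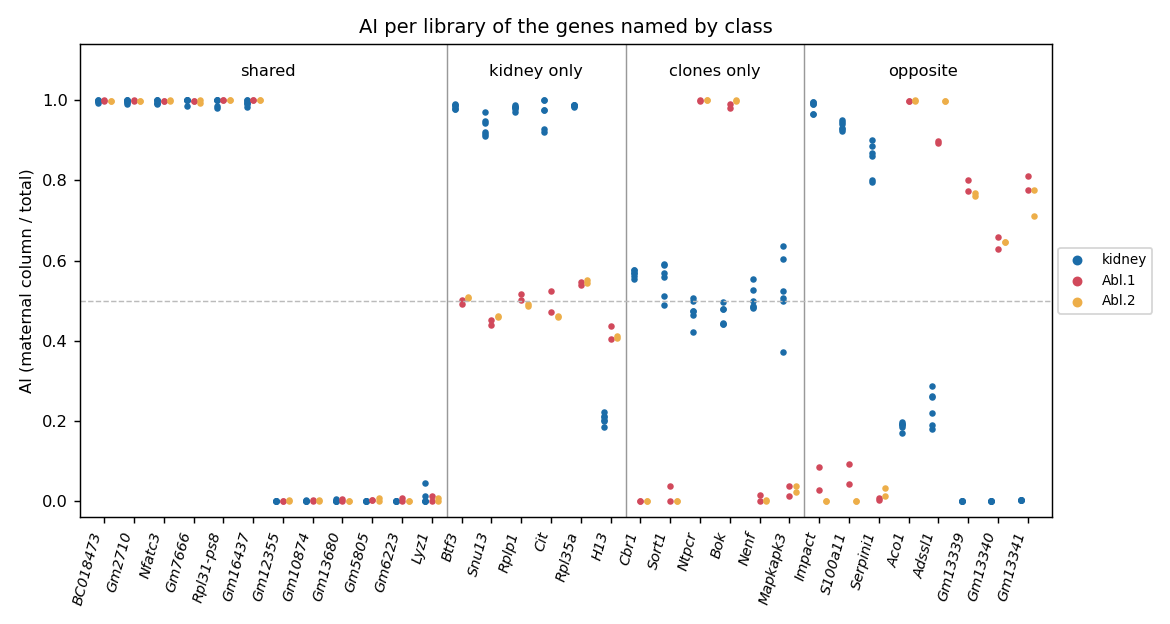
AI in each library (vertical axis, 0.5 dashed) of the genes named by the rule for each class, 1 point per library, kidney, Abl.1 and Abl.2 side by side. Kidney and clones coincide at 0 or 1 for the shared genes, only kidney is near 0 or 1 for Btf3, Rplp1 and Rpl35a, only the clones are there for Cbr1, Ntpcr and Nenf, and the tissues lie at different ends for Impact, S100a11 and Gm13339.

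The kidney only genes named by the rule held ribosomal proteins. Rplp1, of the ribosomal stalk, had an AI of 0.971 to 0.989 in kidney and 0.487 to 0.516 in the clones, and Btf3, a factor for nascent chains, 0.978 to 0.992 and 0.492 to 0.510. Kidney was near the maternal end and the clones near balance in every library.

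Rpl35a had 0.982 to 0.989 in kidney and 0.539 to 0.551 in the clones, and Snu13, a splicing and snoRNP protein, 0.911 to 0.970 and 0.439 to 0.461. Cit, citron kinase, had 0.921 to 1.00 in kidney on 222 pooled counts and 0.458 to 0.524 in the clones. The difference from each clone had an edgeR adjusted p of at most 3.93e-08 for these 5 genes. The NEBNext kidney means were on the same sides, 0.870 to 0.999. The 30-mer share was 76.0% for Rplp1, 44.3% for Btf3, 14.0% for Snu13, 7.70% for Rpl35a and 0.0781% for Cit, and the part of reads from copies of these genes, and of the read layout, was not tested.

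From the lists, Mcm6, another helicase subunit, had an AI of 0.0238 to 0.118 in kidney (median 0.0541) on 608 pooled counts, 0.488 and 0.498 in Abl.1 and 0.488 and 0.509 in Abl.2. Pcna had 0.674 to 0.770 in kidney (median 0.717) and 0.534 to 0.547 in the clones, and Tyms 0.301 to 0.351 in kidney, 0.531 and 0.516 in Abl.1 and 0.447 and 0.433 in Abl.2. These were 3 of 9 DNA replication genes compared, while 2.65% of all genes compared were in the kidney only class. Each of the 3 was lower in total expression in kidney. Their kidney AI did not overlap with that of the clones, but a difference from each clone is part of the definition of this class. For Tyms the difference from Abl.2 was 0.103, just past the limit, and it fell under it without kidney replicate 1 (0.0960) and without Abl.2 replicate 1 (0.0963), and was 0.0603 with each column given its own total. Gpi1, of glycolysis, had 0.734 to 0.777 in kidney and 0.499 to 0.541 in the clones, and Rplp0 had 0.630 to 0.655 and 0.480 to 0.509.

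In the clones only class, both clones had few or no counts in 1 column for the named genes, while kidney was near balance. Cbr1, a carbonyl reductase, had an AI of 0.553 to 0.577 in kidney (median 0.569) on 33034 pooled counts and 0 in all 4 clone libraries on 577 and 1282 counts. Ntpcr, a nucleoside triphosphatase, had 0.423 to 0.506 in kidney and 0.997 to 1.00 in the clones, and Bok, a BCL2 family member, 0.442 to 0.496 and 0.980 to 1.00. Kidney and clones did not overlap for the 3 genes, and both clones were at the same end.

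Nenf, a secreted neurotrophic protein, had 0.481 to 0.555 in kidney against 0 to 0.0164 in the clones, and Sort1, the sorting receptor sortilin, 0.490 to 0.593 against 0 to 0.0377. Mapkapk3, a kinase downstream of p38, was the least precise in kidney, with 0.373 to 0.637 (mean 0.524, SD 0.0925, n = 6), against 0.0132 to 0.0375 in the clones. Total expression of Cbr1 and Nenf was lower in the clones (log2 fold changes -6.10 and -3.38), while for Mapkapk3 it was 0.92. The differences from kidney had an edgeR adjusted p of at most 8.68e-08 for the 6 genes. With the NEBNext libraries the kidney mean of Mapkapk3 was 0.367, beyond 0.1 from 0.5, and those of the other 5 were 0.482 to 0.532.

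List members in this class included Irf8, with 0.414 to 0.567 in kidney (median 0.494), 0.756 and 0.768 in Abl.1 and 0.700 and 0.682 in Abl.2, and Bst1, a surface enzyme of bone marrow stroma and B cell progenitors, with 0.443 to 0.567 in kidney, 0.00781 and 0.0101 in Abl.1 and 0.180 and 0.165 in Abl.2. Pecam1 had 0.471 to 0.546 in kidney and 0.680 to 0.783 in the clones, and Gclm, of glutathione synthesis, 0.428 to 0.474 and 0.0471 to 0.106. H2-Aa had 0.491 to 0.553 in kidney, 0.293 and 0.354 in Abl.1 and 0.0429 and 0.171 in Abl.2, the latter on 257 pooled counts, and its difference in Abl.1 was not called by limma on logit AI (adjusted p = 0.0550). The clones were on the same side of kidney in each of the 5 genes, maternal for Irf8 and Pecam1 and paternal for the others. The kidney means of Bst1 and Gclm in the NEBNext libraries, 0.614 and 0.368, were beyond 0.1 from 0.5. Pecam1 lies on chromosome 11, where the median AI of Abl.1 was 0.594.

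Outside the 6 listed chromosomes, 3645 genes had a kidney AI within 0.1 of 0.5. Of these, 38 were beyond 0.9 or under 0.1 in both clones at the same end, 19 at each end, 5 in both clones at opposite ends, 94 in Abl.1 and not Abl.2, and 136 in Abl.2 and not Abl.1. In kidney, 104 of all 7247 genes were beyond 0.9 or under 0.1.

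In the 49 opposite genes, kidney and clones leaned to different columns. S100a11, a calcium-binding protein, had an AI of 0.924 to 0.950 in kidney (median 0.936), 0.0437 and 0.0927 in Abl.1 and 0 and 0 in Abl.2, and shares 49.2% of its 30-mers. Serpini1, the protease inhibitor neuroserpin, had 0.795 to 0.90 in kidney on 254 pooled counts and 0.00443 to 0.0325 in the clones, and Adssl1, an enzyme of AMP synthesis, 0.179 to 0.288 in kidney, 0.897 and 0.893 in Abl.1 and 0.998 and 0.998 in Abl.2. Kidney and clones lay on different sides of 0.5 in every library, with edgeR adjusted p of at most 4.38e-14 for S100a11, 1.13e-11 for Serpini1 and 1.68e-12 for Adssl1.

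Aco1, the cytosolic aconitase, had 0.171 to 0.197 in kidney (median 0.191) on 50088 pooled counts and 0.997 to 0.999 in the clones. Its mean in the NEBNext kidney libraries was 0.405, so the kidney call is lost with that kit while the difference from the clones is kept in direction. Among list members, Acadm had 0.736 to 0.760 in kidney, 0.398 and 0.366 in Abl.1 and 0.319 and 0.327 in Abl.2, Cd24a, a B cell and epithelial surface protein, 0.579 to 0.682, 0.338 and 0.368, and 0.247 and 0.273, and Ywhaz, a 14-3-3 protein, 0.0889 to 0.186 in kidney and 0.656 to 0.702 in the clones. The kidney value of Cd24a was not called with the NEBNext libraries (0.591). Aco1 lies on chromosome 4 and Cd24a on chromosome 10, where the median AI of Abl.2 was 0.999 and 0.337. On these chromosomes 95.8% and 83.6% of genes were called in Abl.2, so the Abl.2 values of Aco1 and Cd24a are not particular to them.

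Pseudogenes close to mitochondrial DNA also fell in this class. Gm13339, Gm13340 and Gm13341 on chromosome 2 had 29.5%, 46.6% and 49.0% of their 30-mers in common with transcripts of mitochondrial genes. Their mean kidney AI was 0.000486, 0.00112 and 0.00296, and their clone values were 0.629 to 0.810. They took 3.61% of all autosomal counts of kidney and 0.0105% of those of the clones. Mitochondria come from the mother, and the counts of these genes in kidney lay in the column named paternal.

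Some imprinted genes lay on different sides in the tissues as well, namely Impact, Zrsr1, Cdkn1c and Grb10. Impact, expressed from the paternal copy in mouse, had an AI of 0.964 to 0.995 in kidney (median 0.990) on 1096 counts. In the clones it had 0.0294 and 0.0855 in Abl.1 and 0 and 0 in Abl.2. Impact lies on chromosome 18, where 41.5% of genes were called in Abl.1 and 26.6% in Abl.2. H13 was in the kidney only class, with 0.184 to 0.223 in kidney, 0.436 and 0.405 in Abl.1 and 0.406 and 0.412 in Abl.2. Under the limit of counts for the classes, Peg3, Igf2, Sgce, Nap1l5 and Zrsr1, textbook paternally expressed genes, had an AI of 1.00 in every kidney library with counts, on 93 to 579 pooled counts, and Plagl1 had 0.969 to 1.00.

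The textbook maternally expressed Cdkn1c and Grb10 had mean kidney AI of 0.0152 and 0.0437, and Igf2r of 0.140. In the clones, Cdkn1c had an AI of 1.00 in all 4 libraries on 6 and 16 counts, Zrsr1 0 in Abl.1 on 28 counts and 0.229 and 0 in Abl.2 on 63 counts, and Grb10 0.833 to 1.00 on 14 and 1 counts. Mcts2, also a textbook paternally expressed gene, lay on 1 side, with 0.986 to 1.00 in kidney on 408 counts, 0.682 and 0.636 in Abl.1 on 33 counts and 0.938 and 0.793 in Abl.2 on 45 counts. Airn, the antisense RNA of Igf2r and a textbook paternally expressed gene, had 0.154 to 0.224 in kidney on 1056 counts, on the side of Igf2r. Ube3a had 0.492 to 0.579 in kidney, 0.00282 and 0.0136 in Abl.1 and 0.504 and 0.545 in Abl.2. Thus 1 clone was at an end and the other at balance. Ube3a lies on chromosome 7, where 39.7% of genes were called in Abl.1 and 22.3% in Abl.2. Phlda2 had 0.366 to 0.518 in kidney on 505 counts and none in the clones, and Inpp5f, Trappc9 and Blcap had mean AI of 0.390 to 0.529 in every group. In kidney, Impact, Peg3, Igf2, Sgce, Nap1l5, Zrsr1, Plagl1, Mcts2, Cdkn1c, Grb10 and Igf2r lay in the column that their textbook parent would not name. Airn went the other way and lay in the column named for its textbook parent. In the clones, Impact, Zrsr1, Cdkn1c and Grb10 lay in the other column, Mcts2 in the same one.

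**Figure D5:**
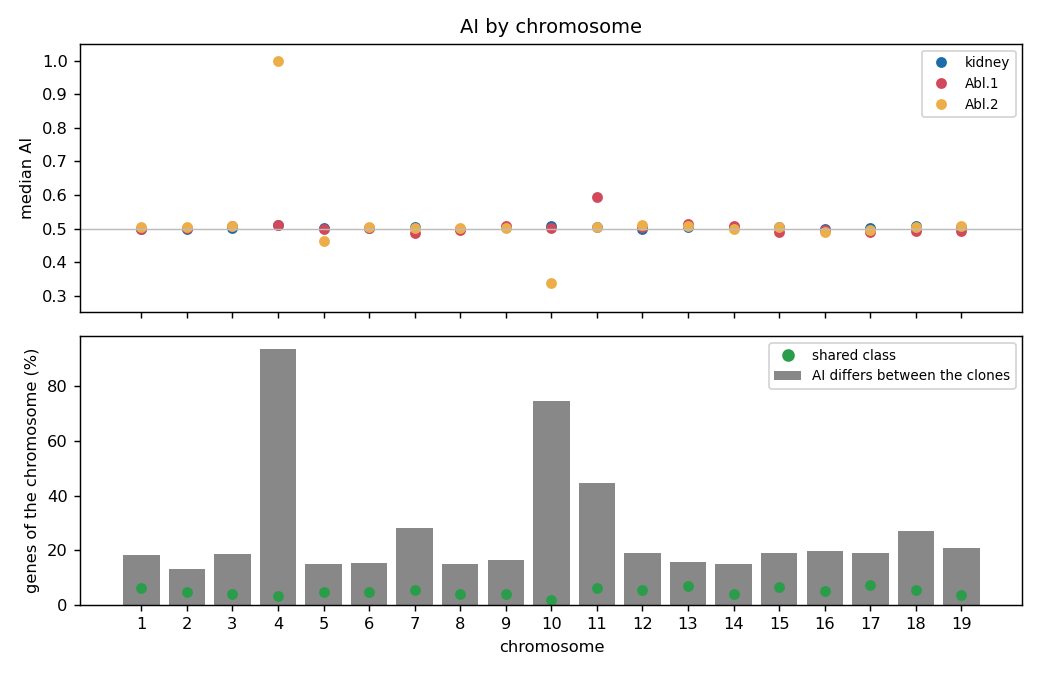
Median AI of the genes of each autosome in kidney, Abl.1 and Abl.2 (upper panel) and the share of genes whose AI differs between the clones (grey bars) or that are in the shared class (green points; lower panel). Kidney medians stay between 0.499 and 0.509 on all chromosomes, Abl.2 stands at 0.999 on chromosome 4 and 0.337 on chromosome 10, and Abl.1 at 0.594 on chromosome 11.

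The 6 listed chromosomes held 63.5% of the 2077 genes that differed between the clones and 38.2% of all genes compared. The median AI of kidney was 0.499 to 0.509 on each of 19 autosomes. In Abl.2 the median was 0.999 on chromosome 4, where 93.6% of 501 genes differed between the clones. It was 0.337 on chromosome 10 (74.7% of 372 genes) and 0.462 on chromosome 5 (14.9% of 510 genes). In Abl.1 the median was 0.594 on chromosome 11 (44.6% of 652 genes). On chromosomes 7 and 18, 28.2% and 27.1% of genes differed between the clones. On the 13 autosomes not listed 13.1% to 20.8% of genes differed, so chromosome 5 lay within their range. The kidney only class had 2 genes on chromosome 4, 2 on chromosome 10 and 3 on chromosome 11. Without the 6 listed chromosomes, 225 shared, 139 kidney only, 169 clones only and 27 opposite genes were left of 4478.

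Leaving out the Abl.1 libraries, which makes the classes rest on Abl.2 alone, gave 480 shared, 340 kidney only, 1205 clones only and 136 opposite genes. This fit compared 6701 genes, against 7247 in the main fit. Each of these classes is defined on both clones, so leaving out Abl.1 removes a condition from every class. The shared class stayed within 1.5 times its size and the others did not. Because the conditions changed, these sizes cannot show which class depends less on Abl.1.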

How the data were processed

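The authors aligned reads with STAR 2.5.4a, per the labels, to pseudogenomes of both strains on GRCm38, assigned reads to alleles, counted each SNP with SAMtools, and summed the SNPs of a gene's exons. The deposited tables hold these whole-number counts for a maternal and a paternal column per library, without normalization. A read over several SNPs can count more than once. The deposited AI tables, which hold fractions pooled by the authors, were not used.

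Samples were grouped by title. Total counts were tested with edgeR 4.0.16 in R 4.3.3 (glmQLFit, glmQLFTest, TMM, filterByExpr, 3 groups, mean of the clones minus kidney), and a call needed a Benjamini-Hochberg adjusted p under 0.05 and a log2 fold change of at least 2. AI was tested with edgeR on both columns, with terms for library and for allele within group, in genes with at least 200 pooled counts on each side, and a call needed a distance of at least 0.1. Folds against a group at 0 are lower bounds from a floor of 3 counts over the group on TMM-scaled totals, and cover counting error only. The share of 30-mers that a gene has in common with other genes, or with mitochondrial genes, was computed from GENCODE M21 transcripts. Promoters were read from RefSeq.

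The members and lists were chosen with earlier results of these data known. Named genes were, for total expression, the 10 with the largest change in each direction called in both clones with at least 100 CPM in the higher tissue, and the 4 most abundant members of each list. For AI they were 6 per class, and 6 per side of the shared class, with the largest distance or difference among genes with at least 100 counts in each clone, and the imprinted genes. Other genes were named after their values were seen. Some genes that these rules select are not reported here.

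The alternatives were other scalings and filters, DESeq2 1.42.0, and limma 3.58.1 on logit AI with 0.5 added. The study's QCC-corrected proportional test was run with Bonferroni adjustment. Others were the clones as 1 group, thinning, and other minimum counts, distances and folds. Further ones were the second run of Abl.2, NEBNext kidney libraries, a replicate term, and each library left out. Leaving out Abl.1, non-coding genes and genes with shared 30-mers was chosen after seeing the data. In simulations, a changed gene counted as found at an adjusted p under 0.05 in the right direction, without the fold or distance limit. All groups were simulated with the same spread, unlike these libraries, so the shares found do not measure the calls above. On simulated counts of 11114 genes, all 200 genes changed by a fold of 4 and all 200 changed by a fold of 8 were found. At that adjusted p, 8 and 13 unchanged genes passed. On simulated AI of 7247 genes, the mean of the clones was set against kidney, with 200 genes changed by 0.15 or by 0.3. Of these, 170 and 190 were found, and 6 and 9 unchanged genes passed. Between Abl.1 and kidney, 152 and 198 of 200 were found, and 13 and 12 unchanged genes passed. Python 3.11.15 and matplotlib 3.10.9 drew the figures.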

Additional observations from a re-analysis of the deposited data

Results flagged for a closer look

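In the groups of 6 kidney libraries, 106 were tested for a library far from the others and 7 were found, where chance flags about 1 in 20 groups. They were the lowest depth (6345030 autosomal counts), the highest CPM of Ehhadh (934) and Cox7a2 (1661), the lowest AI of Gm7666 (0.986), and the highest AI of Gm10874 (0.00296), Gm13680 (0.00556) and Lyz1 (0.0455).

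Of 72 named expression genes, 9 differed between the clones by a fitted fold of at least 4 with an adjusted p under 0.05 in edgeR's test. On the log2 scale Abl.2 exceeded Abl.1 by 2.20 for Tcf3, 2.31 for Pou2af1 and 4.51 for Gstm1, and the difference Abl.2 minus Abl.1 was -5.64 for Gm11223, -2.27 for Acaa2 and -2.94 for Gstt1. Umod, Ren1 and Tfcp2l1 were at 0 in Abl.1, and with a floor of 3 counts over its libraries Abl.2 was higher by at least 6.56, 1.18 and 2.01, on 374, 9 and 16 pooled counts, so the bound of Ren1 is under the 4-fold limit.

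Of 48 named AI genes, 4 differed between the clones, with AI of Abl.2 minus Abl.1 of 0.103 for Adssl1, 0.164 for Bst1, 0.133 for Gstp1 and -0.217 for H2-Aa. In all, 2077 of the 7247 genes differed in AI between the clones.

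X-linked genes, left out of every comparison, had 251798 to 306179 allelic counts in an Abl library and 0 in each kidney library. The cause was not tested.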

How the results depend on the processing

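No called value changed direction under an alternative. Of the values of named genes, 2994 for AI and 1530 for total expression kept their call, 28 and 1 lost it and 0 and 9 gained one. Library size alone gave 3040 genes higher in the clones on the mean and 3614 in Abl.2. A log2 limit of 1 gave 3580 on the mean, 3791 in Abl.1 and 3799 in Abl.2. With the clones fitted as 1 group, 2210 genes were higher in the clones and 3918 higher in kidney.

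The QCC-corrected test used Bonferroni in place of Benjamini-Hochberg adjustment, so its counts differ from the main ones in that respect too. It called 1310 genes in Abl.1, 1130 differences of Abl.1 from kidney, and 227 shared, 119 kidney only, 122 clones only and 28 opposite genes. An AI distance of 0.05 called 2465 genes in kidney, 623 shared and 114 opposite. A distance of 0.2 called 430 genes in kidney, 1061 in Abl.1 and 1341 in Abl.2, differences of 1032 and 1355, and 130 shared, 88 kidney only, 160 clones only, 10 opposite and 1311 discordant genes. Without the 6 listed chromosomes, fewer genes were tested, with 807, 1151 and 1048 called in kidney, Abl.1 and Abl.2, 1120 and 1059 differences, and 225 shared, 169 clones only, 27 opposite and 715 discordant genes. NEBNext kidney libraries gave 232 shared genes, and leaving out Abl.1 gave 340 kidney only, 1205 clones only and 136 opposite ones. The r of AI between tissues was 0.296 at 500 counts, 0.378 without the listed chromosomes, 0.244 with NEBNext and 0.268 under 20% shared 30-mers. Where no other reason is given, the cause was not tested.

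With a replicate block, 716 genes were called in kidney, with 214 shared, 119 kidney only and 26 opposite, on 2 residual degrees of freedom, and no other count moved by over 1.5 times. Deviations of same-numbered libraries had an r of 0.119 (expression) and -0.03 (AI) between the clones, and of -0.02 to 0.03 with kidney. With 2 libraries per clone, the deviations of replicates 1 and 2 mirror each other, so each value between the clones is a single number. These values cannot show whether the numbers pair the libraries.

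Leaving out 1 library at a time gave 1981 to 2118 genes higher in the clones and 4446 to 4822 higher in kidney on the mean, 2231 to 2384 and 4212 to 4594 for Abl.1, and 2179 to 2332 and 4510 to 4872 for Abl.2. It gave 1248 to 1290 genes with AI called in kidney, 1940 to 2074 in Abl.1 and 1989 to 2254 in Abl.2, differences from kidney of 1873 to 1977 and 1972 to 2291, and 309 to 340 shared, 157 to 194 kidney only, 243 to 276 clones only, 40 to 49 opposite and 1837 to 2066 discordant genes. Each count stayed within 1.5 times the full value, and a lone library of a clone was taken to vary like the other groups.

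Genes under the limit of counts on either side were not compared. All counts rest on 1 kidney and 2 clones.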
